A study of Rattus norvegicus with 8 samples.

Results

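The genes described here are 7 nuclear genes of oxidative phosphorylation in the medial prefrontal cortex (mPFC) of adult rats. They comprise the ATP synthase subunits Atp5f1b (Atp5b in the deposited tables) and Atp5mc3 (Atp5g3), the complex II subunit Sdhc, the complex I subunit Ndufa7, the complex I assembly factor Acad9, and the cytochrome c oxidase (complex IV) subunits Cox6a2 and Cox4i2. They were chosen from the authors' deposited tables of higher and lower probes, by gene name, and are 7 of 426 genes identified among the 450 probes of those tables. Each was measured by 1 probe. The tissue label could not be checked, since the tables name 0 of the neuronal, astrocyte, oligodendrocyte and microglia markers on the lists used. A probe entered the tables if its PNFLX mean differed from the CONTROL median by 0.4 (log2) or more, with an unadjusted p no higher than 0.05. The direction of each gene, and the difference between the groups, are therefore part of how it was chosen and are given as descriptions. Of the 7 genes, 5 were listed as higher and 2 (Ndufa7 and Cox6a2) as lower.

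Whole mPFC was taken at 6 months of age. The group PNFLX consisted of rats dosed as pups with 10 mg/kg of the antidepressant fluoxetine, which blocks serotonin reuptake, from postnatal day 2 to 21. The group CONTROL is taken to have received only the vehicle, 5% sucrose in solution, over the same days. Each group had 4 one-colour Agilent arrays with 15207 probes, numbered here as in the sample titles. The source names number CONTROL 3 and 4 as CONTROL 4 and 5, and PNFLX 4 as PNFLX 5. The free-text descriptions of CONTROL 2, 3 and 4 say that these rats received fluoxetine. Their titles, their source names and the authors' tables call them control. The titles were followed, and every difference between the groups below rests on that choice. Whether each array stands for its own animal is not said in the labels, which also give no sex, litter or strain. The SDs below therefore describe the spread between these arrays. The SEs come from limma, which draws each probe's variance toward that of all 15207 probes. All values come from bulk tissue, in which fewer cells of a type and less RNA per cell cannot be told apart.

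Oxidative phosphorylation takes place on the inner mitochondrial membrane. Complex I and complex II feed electrons from NADH and succinate into ubiquinone, complex III passes them to cytochrome c, and complex IV hands them to oxygen. The protons pumped on the way drive ATP synthase (complex V), which makes most of the ATP that cortical neurons spend on ion pumping and synaptic transmission. Most subunits are encoded in the nucleus, and some have tissue-specific isoforms.

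2 arrays stood apart from the rest. Over all probes the median log2 value was 0.59 on PNFLX 2 and 0.79 on CONTROL 1, against -0.18 to 0.09 on the other 6 arrays, and the SD over probes was 1.72 and 2.01, against 0.54 to 1.15. The lowest listed signals were also highest on these arrays, at 9.09 on PNFLX 2 and 14.9 on CONTROL 1, against 1.14 to 2.97 on the others. The difference of each gene without both arrays is given with its values. With limma, 18 of 15207 probes (0.118%) differed between the groups at an adjusted p under 0.05 (9 higher and 9 lower, 0.0592% each), and 0 of the 7 genes were among them (5 of the 7 at an unadjusted p under 0.05 in limma, against 2.58% of all probes). With both arrays left out, 40 probes passed and 1 of the 7 genes, Acad9, was among them (limma adjusted p = 0.0296). Since the genes were chosen on the same contrast, nothing is read from these counts.

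Both listed ATP synthase genes were higher in PNFLX. Atp5f1b encodes the catalytic beta subunit of the F1 head, and the authors' tables map it to band 7q11. Its background-subtracted signal was 3974, 7249, 9214 and 7860.1 on PNFLX 1 to 4, against 1179, 3354, 1697 and 2165 on CONTROL 1 to 4. Every PNFLX array lay above every CONTROL array, with the nearest pair 0.40 apart (log2). The log2 value, which the deposited table gives relative to the CONTROL median after scaling between arrays, averaged 1.42 ± 0.44 in PNFLX and -0.17 ± 0.84 in CONTROL (SD, n = 4 each). The difference was 1.59 ± 0.47 (log2, SE), a 3.00-fold higher mean in PNFLX. The signals of Atp5f1b were at least 79.2 times the lowest listed signal of their array, so its values did not lie near the floor of any array. Without CONTROL 1 the difference was 1.22 (log2), and without CONTROL 1 and PNFLX 2 it was 1.32.

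Atp5mc3 encodes subunit c, which forms the rotating ring of the membrane sector (band 3q23). It is 1 of several genes for the same mature ring protein, and whether its probe also binds the transcripts of its paralogs was not tested. Its signal was 1284, 1264, 1076 and 1016 on PNFLX 1 to 4, against 21.1, 473, 243 and 131 on CONTROL 1 to 4. The PNFLX arrays lay close together and all above the CONTROL arrays, which spread widely, with CONTROL 1 far below the other 3. The log2 value averaged 2.30 ± 0.33 in PNFLX and -0.61 ± 2.10 in CONTROL (SD, n = 4 each), and the difference was 2.91 ± 0.96 (log2, SE), or 7.51-fold. The signal on CONTROL 1 was only 1.42 times the lowest listed signal of that array. Without CONTROL 1 the difference was 1.90 (log2), and without CONTROL 1 and PNFLX 2 it was 1.99.

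The promoter windows of the ATP synthase genes are shown because these genes share a complex and were both listed as higher. The RefSeq promoter table for the build GRCr8 held 6 of the 7 genes (it had no entry for Cox4i2). The 250 bases before the annotated start are printed 5′ to 3′ on the gene's strand, with matches to the CCAAT box (CCAAT) and to the core site of estrogen-related receptors (AAGGTCA), on either strand, in capitals.
Atp5f1b, chr7:1099808-1100057, plus strand: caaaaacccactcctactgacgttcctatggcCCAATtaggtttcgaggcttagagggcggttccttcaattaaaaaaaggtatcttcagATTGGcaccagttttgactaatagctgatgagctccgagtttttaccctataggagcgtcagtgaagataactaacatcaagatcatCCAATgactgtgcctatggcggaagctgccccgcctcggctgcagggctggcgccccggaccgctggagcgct
Atp5mc3, chr3:79220665-79220914, minus strand: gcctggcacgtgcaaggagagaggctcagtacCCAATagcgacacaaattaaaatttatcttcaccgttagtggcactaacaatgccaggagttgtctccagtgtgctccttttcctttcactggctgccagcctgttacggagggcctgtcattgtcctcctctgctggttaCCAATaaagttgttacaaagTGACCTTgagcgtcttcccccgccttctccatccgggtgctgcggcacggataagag
Atp5f1b had 3 CCAAT matches, at positions -218, -160 and -73 relative to the start (first base of each match), with that at -160 on the opposite strand. Atp5mc3 had 2, at -218 and -77, and 1 receptor core site on the opposite strand at -57. Of all 33469 promoters in the table, 34.0% held at least 1 CCAAT and 9.42% at least 2 within this window, and 3.99% held AAGGTCA. The motifs do not overlap here, and a match is only a run of letters. Of the other windows, that of Cox6a2 (listed as lower) had 1 CCAAT, at -14. Those of Sdhc and Acad9 (listed as higher) and Ndufa7 (listed as lower) had 0. The core of the NRF1 site (GCGCATG, in 3.26% of promoters), searched because NRF1 is a known activator of respiratory genes, was in 0 of the 6 windows.

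**Figure D1:**
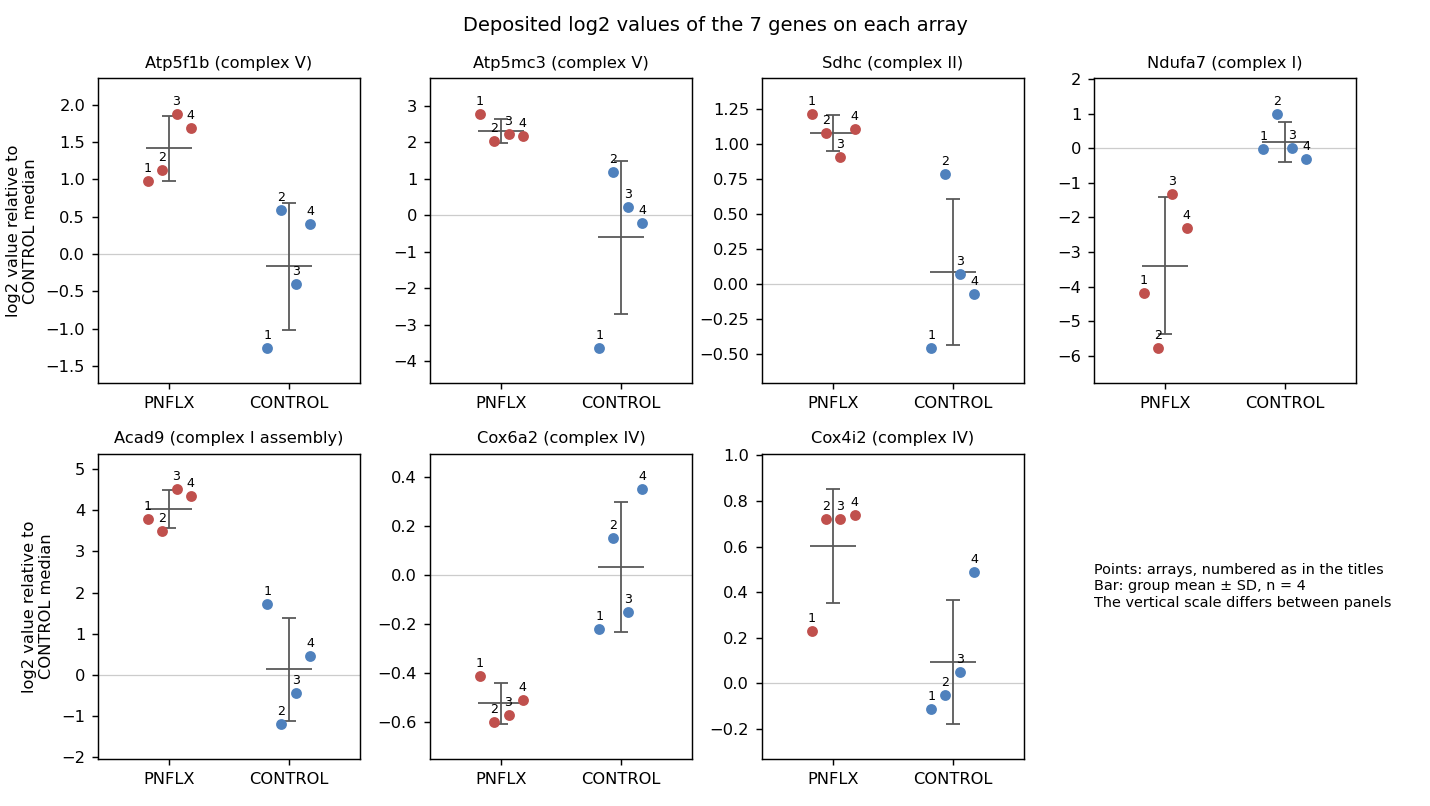
Deposited log2 values (vertical axis, relative to the CONTROL median of each probe) of the 7 genes on 4 PNFLX arrays (left) and 4 CONTROL arrays (right), with group means and SD. The groups are apart for 6 genes and overlap for Cox4i2, where PNFLX 1 at 0.23 lies within the CONTROL range of -0.11 to 0.49, and CONTROL 1 is lowest of its group for 5 of the 7 genes.

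Sdhc, the single complex II gene listed, was 2.00-fold higher in PNFLX. It encodes a membrane anchor subunit of succinate dehydrogenase, which binds heme and ubiquinone (band 13q24). Its signal was 1782, 2687, 1786 and 1999 on PNFLX 1 to 4, against 779, 1464, 892 and 596 on CONTROL 1 to 4. The PNFLX arrays were all higher, but the nearest pair, PNFLX 3 and CONTROL 2, was 0.12 apart on the log2 scale. The log2 value averaged 1.08 ± 0.13 in PNFLX and 0.08 ± 0.52 in CONTROL (SD, n = 4 each), with a difference of 1.00 ± 0.32 (log2, SE). Without CONTROL 1 it was 0.82, as it was without CONTROL 1 and PNFLX 2, and without CONTROL 2 it was 1.23.

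The genes of complex I and its assembly were listed in opposite directions. Ndufa7, an accessory subunit of complex I that the authors' tables place on chromosome 7, was lower in PNFLX. Its signal was 27.6, 15.2, 246 and 121 on PNFLX 1 to 4, against 689, 1106, 561 and 325 on CONTROL 1 to 4. All PNFLX arrays were lower, and they spread more than the CONTROL arrays, with PNFLX 1 and 2 lowest. The log2 value averaged -3.39 ± 1.97 in PNFLX and 0.17 ± 0.57 in CONTROL (SD, n = 4 each), and the difference was -3.57 ± 0.93 (log2, SE), or 11.8-fold lower in PNFLX. On PNFLX 2 the signal was 1.67 times the lowest listed signal of that array. Without PNFLX 2 the difference was -2.77, without CONTROL 1 and PNFLX 2 it was -2.84, and without PNFLX 3 it was -4.25. With weights estimated for each array it was -2.32.

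Acad9 was 15-fold higher in PNFLX, and its CONTROL signals were close to the floor. Acad9 belongs to the acyl-CoA dehydrogenase family, oxidises long-chain acyl-CoA, and is known from human and mouse cells as an assembly factor of complex I. Its probe was designed from a predicted transcript on chromosome 2. The signal was 93.3, 128, 192 and 167 on PNFLX 1 to 4, against 31.1, 3.30, 5.53 and 7.57 on CONTROL 1 to 4. All PNFLX arrays were higher, and CONTROL 1 was the highest of its group. The log2 value averaged 4.04 ± 0.47 in PNFLX and 0.13 ± 1.25 in CONTROL (SD, n = 4 each), with a difference of 3.91 ± 0.63 (log2, SE). The nearest arrays of the groups were 1.79 apart (log2). Without CONTROL 1 the difference was 4.43, and without CONTROL 1 and PNFLX 2 it was 4.61. The signal on CONTROL 2 was 1.39 times the lowest listed signal of that array. With all signals below 50 raised to 50, the difference was 1.28 (log2). All 4 CONTROL signals of Acad9 were below 50, so this size depends on the floor chosen. Atp5mc3, with only CONTROL 1 below 50, was at 2.60 under the same floor. Ndufa7, with PNFLX 1 and PNFLX 2 below 50, was at -2.92.

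The promoter windows of the complex I genes are shown because these genes serve the same complex and were listed in opposite directions. Capitals mark exact matches to the ETS core CCGGAAG on either strand, which only the Acad9 window holds. ETS sites are bound by NRF2, also called GABP, another known activator of respiratory genes. Variants of these letters were not searched, and the Ndufa7 window holds cttccgc, which differs from the opposite-strand core (cttccgg) in its last letter. The Atp5f1b window shown above holds the same variant on the other strand (gcggaag).
Ndufa7, chr7:15311196-15311445, plus strand: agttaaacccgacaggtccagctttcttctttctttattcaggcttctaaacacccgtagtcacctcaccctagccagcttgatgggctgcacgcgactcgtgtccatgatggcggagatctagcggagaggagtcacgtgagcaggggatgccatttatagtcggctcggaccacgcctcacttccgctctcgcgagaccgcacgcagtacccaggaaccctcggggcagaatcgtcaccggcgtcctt
Acad9, chr2:120871079-120871328, plus strand: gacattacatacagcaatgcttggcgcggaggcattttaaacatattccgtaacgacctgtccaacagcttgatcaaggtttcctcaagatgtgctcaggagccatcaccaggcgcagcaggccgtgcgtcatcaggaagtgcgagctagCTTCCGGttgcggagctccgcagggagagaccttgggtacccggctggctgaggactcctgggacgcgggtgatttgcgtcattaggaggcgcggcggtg
Acad9 had 1 ETS core on the opposite strand, at -100, and Ndufa7 had no exact match to the 4 motifs searched. Whether either promoter is bound was not tested. The ETS core was in 7.27% of all promoters. The GC content was 57.6% for Ndufa7, 58.0% for Acad9, 51.2% for Atp5f1b and 52.0% for Atp5mc3, against a median of 51.2% over all promoters.

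**Figure D2:**
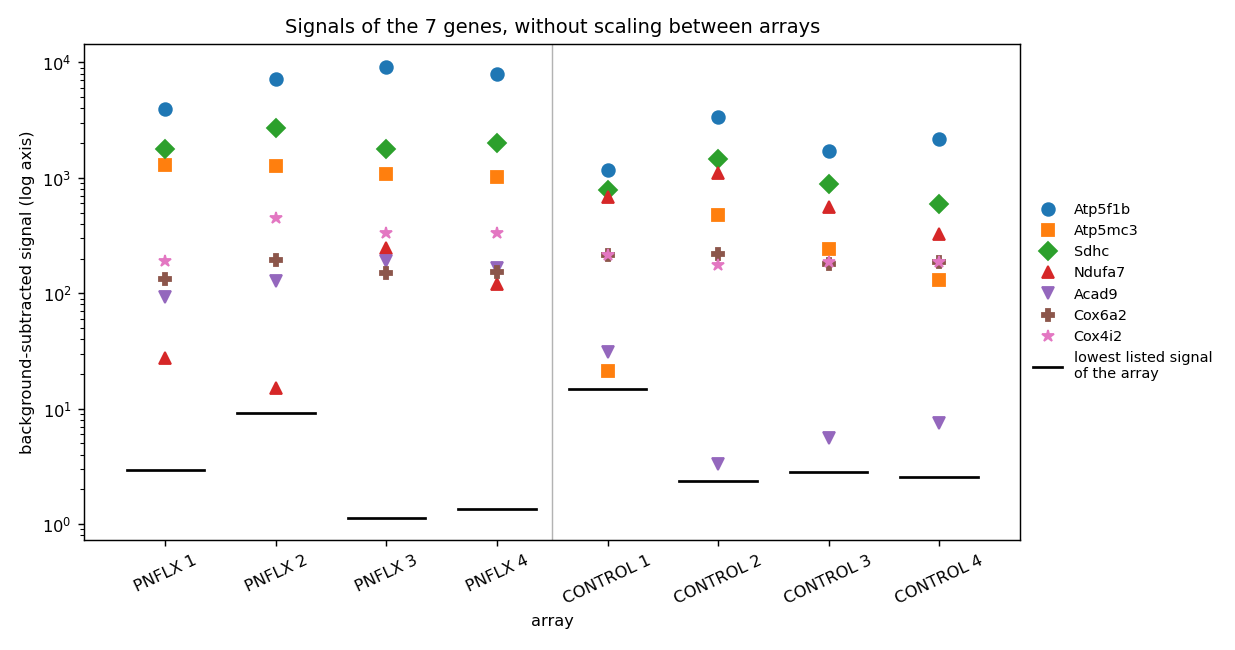
Background-subtracted signal (log axis) of the 7 genes on each array without scaling between arrays, PNFLX on the left and CONTROL on the right, with black bars at the lowest listed signal of each array. Acad9 on CONTROL 2 (3.30), Atp5mc3 on CONTROL 1 (21.1) and Ndufa7 on PNFLX 2 (15.2) lie just above these bars, and levels of different probes are not comparable with each other.

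The complex IV genes had the smallest differences, 1 in each direction. Both encode tissue-specific isoforms whose common counterparts are Cox6a1 and Cox4i1. Cox6a2, the isoform of heart and skeletal muscle (band 1q36), is known in the mouse cortex from parvalbumin interneurons. Its signal was 134, 196, 149.6 and 152 on PNFLX 1 to 4, against 215, 219.9, 179.8 and 186 on CONTROL 1 to 4. The unscaled signals overlapped, since PNFLX 2 lay above CONTROL 3 and CONTROL 4, whereas the scaled log2 values did not. The log2 value averaged -0.52 ± 0.08 in PNFLX and 0.03 ± 0.26 in CONTROL (SD, n = 4 each), with a difference of -0.56 ± 0.24 (log2, SE), or 1.47-fold lower in PNFLX. Without any scaling between arrays the difference was -0.35, with quantile normalization it was -0.93, and without CONTROL 1 and PNFLX 2 it was -0.62. Of the 8 markers of parvalbumin interneurons and the 5 of heart and skeletal muscle on the lists used, 0 were named in the authors' tables, so whether those cells moved with Cox6a2 was not tested.

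Cox4i2, known as the lung isoform of subunit IV and induced by low oxygen (band 3q41), is known in the mouse brain from pericytes and vascular smooth muscle. Its signal was 192, 449, 335 and 331 on PNFLX 1 to 4, against 213, 176, 188 and 188 on CONTROL 1 to 4. PNFLX 2 to 4 were above all CONTROL arrays and PNFLX 1 was not. The log2 value averaged 0.60 ± 0.25 in PNFLX and 0.10 ± 0.27 in CONTROL (SD, n = 4 each), and the difference was 0.51 ± 0.27 (log2, SE), or 1.42-fold. Without CONTROL 1 and PNFLX 2 it was 0.40. Beside it, 3 of 11 pericyte and smooth muscle markers were named in the tables, which hold 2.96% of all probes (1.48% as lower). All 3 were listed as lower: Rgs5 at -3.06 ± 0.77, Anpep at -0.66 ± 0.30 and Kcnj8 at -0.43 ± 0.22 (log2 difference, SE). The sum of their signals, without scaling between arrays, ran from 489 to 742 over PNFLX arrays (median 534) and from 608 to 1320.5 over CONTROL arrays (median 831), with 0 values at 0. Since a marker has a named probe only if it met the authors' criteria, the lower sum in PNFLX follows from how the 3 were listed. The groups of Anpep overlapped, and the signal of Rgs5 on PNFLX 1 was 1.72 times the lowest listed signal of that array. Of 6 endothelial markers, 2 were named, Emcn as higher (2.08 ± 0.67) and Cldn5 as lower (-0.57 ± 0.29), with overlapping groups for both. The other 8 pericyte and smooth muscle markers have no named probe here, and the part of these cells in the result was not tested.

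Across the genes, the groups did not overlap for 6 of 7, against 2.32% of all 15207 probes (1.18% with PNFLX above CONTROL and 1.14% below). All 7 met the authors' criteria, against 2.96% of all probes. Both shares follow from how the genes were chosen. The median difference was 1.00 (log2) over the 7 genes and -0.07 over all probes, and the median absolute difference was 1.59 and 0.306. Spread within groups was uneven. Cox6a2 and Cox4i2 had a pooled within-group SD of 0.20 and 0.26 (log2) and Sdhc one of 0.38, while Atp5mc3 and Ndufa7 reached 1.5 and 1.45, against a median of 0.94 over all probes. CONTROL 1 lay below its group mean for 6 of the 7 genes and above it for Acad9. PNFLX 2 was the lowest of its group for 4 genes.

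The genes nearest to the edge of the authors' criteria were the complex IV genes for size, with authors' means of -0.52 for Cox6a2 and 0.60 for Cox4i2 in the authors' deposited table, and Atp5mc3 and Cox4i2 for p. Their unadjusted p-values in the authors' deposited table were 0.0339 and 0.0334. Probes outside the criteria carry no gene name in the files, so respiratory genes just outside them were not analysed here. When arrays were left out in turn, Atp5f1b, Sdhc, Ndufa7 and Acad9 met the criteria in all 8 fits, Cox6a2 in 6, Atp5mc3 in 3 and Cox4i2 in 2. With array medians set equal, 2 genes met them (Acad9 and Ndufa7). How many of all probes met the criteria in these fits was not counted.

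**Figure D3:**
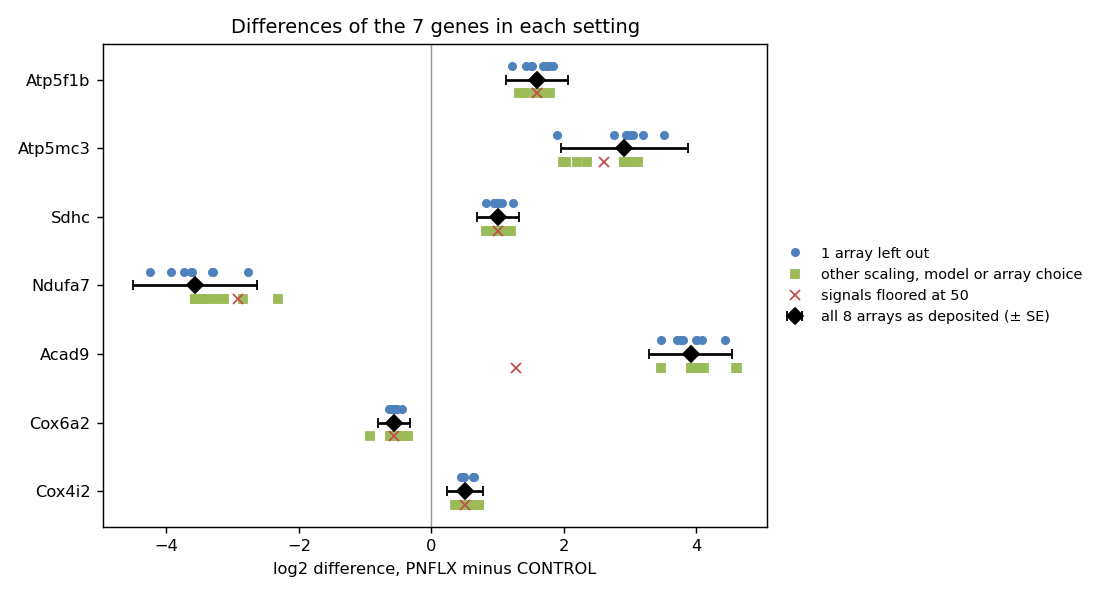
Log2 difference, PNFLX minus CONTROL (horizontal axis), of each gene with all arrays as deposited (black diamonds, ± SE), with 1 array left out, with other scaling, model or array choices, and with signals floored at 50. The sign of each gene is the same in every setting drawn, and the floor moves Acad9 from 3.91 to 1.28.

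The remaining genes of oxidative phosphorylation could be read only where the authors' tables name them. Of 136 genes in a list of complex I to V subunits and assembly factors, the 7 described here were named, 5 as higher and 2 as lower, beside 2.96% of all 15207 probes in the tables (1.48% in each direction). By complex, this was 1 of 39 complex I subunits, 1 of 15 complex I assembly factors, 1 of 8 genes of complex II, 0 of 17 of complex III with cytochrome c, 2 of 35 of complex IV and 2 of 22 of complex V. The list was not complete. Uqcc5, an assembly factor of complex III that the authors' tables hold as higher, was outside it and is not in these counts (described below). A gene that is not named may lack a probe or lie outside the criteria.

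Of 271 genes in 4 further mitochondrial lists, 14 were named, 9 as higher and 5 as lower, beside the same 2.96% of all probes. These lists were not complete either. The mitochondrial tRNA synthetases Cars2 (listed as lower) and Rars2 (listed as higher), named below, were outside them and are not in these counts. In limma 0 of the 14 passed, beside 0.118% of all probes. In the same fit 9 of the 14 had an unadjusted p under 0.05, beside 2.58% of all probes and 339 of the 450 listed probes. The 14 are named only because they met the authors' criteria on the same contrast, so nothing is read from these counts. Etfdh, the single gene named for substrate supply, encodes the oxidoreductase that passes electrons from fatty acid and amino acid oxidation to ubiquinone. Its log2 values were 2.01, 1.48, 1.69 and 2.04 on PNFLX 1 to 4, against 0.49, 0.30, -0.30 and -0.37 on CONTROL 1 to 4. All PNFLX arrays were higher, with a difference of 1.78 ± 0.31 (log2, SE) and median signals of 195 in PNFLX and 51.1 in CONTROL. The phosphate carrier Slc25a3, which supplies ATP synthase with phosphate, was at 0.42 ± 0.25 and its groups overlapped, with log2 values of 0.76, 0.08, 0.42 and 0.40 on PNFLX 1 to 4, against -0.06, 0.06, -0.09 and 0.09 on CONTROL 1 to 4.

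Among the other carriers, the outer membrane protein Slc25a46 was at 1.64 ± 0.43 and the glutamate carrier Slc25a22 at 0.65 ± 0.28 (log2 difference, SE). The carnitine-acylcarnitine carrier Slc25a20, at -0.65 ± 0.31, and the uncoupling protein Ucp1, at -1.81 ± 0.49, were listed as lower. The groups overlapped for Slc25a22, Slc25a20 and Ucp1. The median signal of Ucp1 was 3.56 in PNFLX and 14.2 in CONTROL, and on PNFLX 1 it was at 2.97, the lowest listed signal of that array. Of mitochondrial ribosomal proteins, Mrpl11 (mrpl11 in the files) was at 1.56 ± 0.39 and Mrps7 at 1.46 ± 0.43, both listed as higher, and Mrpl24 (mrpl24) was at -0.58 ± 0.25. The list of import and quality control held the fission factor Fis1, at 1.54 ± 0.36, and the mitophagy kinase Pink1, at 0.84 ± 0.27, as higher. It held the fusion GTPase Mfn1, at -3.81 ± 0.85, and the inner membrane organiser Chchd3, at -0.43 ± 0.24, as lower. Mfn1 was also at the lowest listed signal (2.97) on PNFLX 1, and the groups of Chchd3 overlapped. Ppargc1a, a coactivator of respiratory genes, was at 2.20 ± 0.77, with a median signal of 38.8 in PNFLX and 6.87 in CONTROL. Its log2 values were 2.26, 3.64, 2.38 and 1.78 on PNFLX 1 to 4, against 2.36, -1.08, 0.21 and -0.21 on CONTROL 1 to 4, so CONTROL 1 lay within the PNFLX range.

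**Figure D4:**
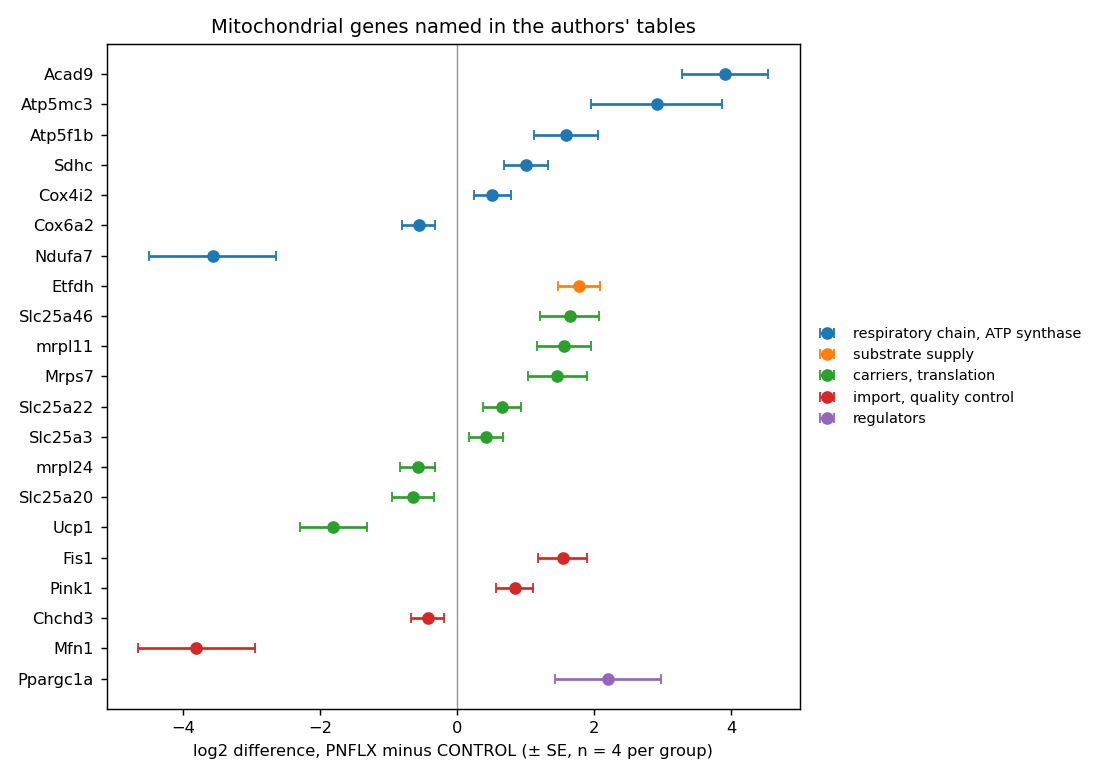
Log2 difference, PNFLX minus CONTROL (horizontal axis, ± SE, n = 4 per group), of the 21 genes of the mitochondrial lists that the authors' tables name, coloured by list. Genes of the respiratory chain and ATP synthase run from -3.57 (Ndufa7) to 3.91 (Acad9), and each list with over 1 gene holds both directions.

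For each gene the 2 other listed probes with the most similar values over the 8 arrays were noted, as a description, by Pearson correlation of the log2 values. The 8 points hold both groups, and all listed probes were chosen for a group difference, so high values are built in. Atp5f1b was most like the synaptic adhesion gene Lrrtm3 (r = 0.986) and Mrpl11 (r = 0.980). Atp5mc3 was most like Tnfrsf11b, the decoy receptor osteoprotegerin (r = 0.984), and a probe without a gene symbol (r = 0.983). Sdhc was most like Bad, a cell death regulator of the BCL2 family (r = 0.983). CONTROL 1 was the lowest CONTROL array for each of these genes.

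Ndufa7 was most like Cars2, the mitochondrial cysteinyl-tRNA synthetase (r = 0.972, named RGD1311612 in the files), and the cochaperone Dnajc21 (r = 0.953). Cars2 had a median signal of 67.7 in PNFLX and 1504 in CONTROL. Acad9 was most like the terminal uridylyltransferase Tut4 (r = 0.997) and the myosin phosphatase subunit Ppp1r12a (r = 0.977), whose CONTROL median signals were 5.68 and 6.52, also near the floor. Cox6a2 was most like a probe without a gene symbol (r = 0.938) and Reg3a (r = 0.936), whose median signals were 10.1 in PNFLX and 14.3 in CONTROL. Cox4i2 was most like Uqcc5, an assembly factor of complex III (r = 0.914), and Rars2, the mitochondrial arginyl-tRNA synthetase (r = 0.865).

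Uqcc5 is a further gene of respiratory chain assembly that the files name RGD1307583, and it was identified through RefSeq. Its log2 values were 0.24, 0.76, 0.61 and 0.81 on PNFLX 1 to 4, against -0.10, -0.11, 0.11 and 0.10 on CONTROL 1 to 4. All PNFLX arrays were higher, unlike for Cox4i2, and PNFLX 1 was the lowest PNFLX array for both genes. The difference was 0.61 ± 0.24 (log2, SE), with median signals of 1380.4 in PNFLX and 766 in CONTROL. It was outside the lists used and is not counted among the 7 genes.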

How the data were processed

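Total RNA of whole mPFC was extracted on columns, and 500 ng were labelled with Cy3 at 40 °C, per the labels' protocols. The deposited value table and the authors' tables of changed probes hold log2 values with each probe's CONTROL median (4 arrays) set to 0, per the file headers and the values. The authors' tables add the background-subtracted signal intensity of each array, an unadjusted p-value and gene names. For the 450 listed probes, log2 of the signal minus the log2 value equalled 1 constant per array plus 1 per probe (largest residual 5.1e-07). How the array constants (-0.52 to 0.50) were derived, and the software and detection flags behind the signals, is not given in the sources used here.

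All 15207 probes were fitted with limma 3.58.1 (R 4.3.3), PNFLX minus CONTROL, on all 8 arrays, with Benjamini-Hochberg adjustment and a threshold of 0.05. The code was checked on data with known changes. The SE of each difference comes from this fit and is moderated. It can therefore be larger or smaller than the gene's own arrays alone would give. For Kcnj8, group SDs of 0.08 and 0.09 went with an SE of 0.22. The number of arrays limits the precision. Of the 450 probes, 437 matched a RefSeq gene of GRCr8 by gene ID or name. Promoter motifs were searched in Python 3.11.15, and protein sequences were not used here.

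Genes, lists, motifs, tests and alternatives were chosen with earlier results of these data known. The named genes are the 7 members, the named genes of the mitochondrial lists and the 2 nearest probes per member, of which 1 is not reported here. Alternatives were other scalings (quantile, equal medians, equal 75th percentiles, none), a signal floor of 50, group medians, array weights, no moderation, removal of the least variable 25% of probes, the replicate numbers or the 2 deviating arrays as a block, and left-out arrays.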

Additional observations from a re-analysis of the deposited data

Results flagged for a closer look

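Within groups of 4 arrays, 1 value of the 7 genes lay far from the other 3. Cox4i2 on PNFLX 1 was at 0.23 (log2), against 0.72 to 0.74 on the other PNFLX arrays, and the gap was 0.960 of the range (above Dixon's critical value for 4 values). In all, 14 groups were examined, and about 1 in 20 passes by chance. Without PNFLX 1 the difference of Cox4i2 was 0.63 (log2).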

How the results depend on the processing

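The count of 18 changed probes moved with the processing. It was 10 with quantile normalization (2 higher, 8 lower), 4 with equal 75th percentiles (3 higher, 1 lower), 150 with array weights, 43 with CONTROL 1 and PNFLX 2 as a block of their own and 40 with both left out. With 1 array left out it ranged from 2 to 26, with 2 without PNFLX 4 or CONTROL 2, 3 without CONTROL 3 and 4 without CONTROL 4. The replicate block gave 0 (346 at an unadjusted p under 0.05, limma). Arrays that share a number in the titles correlated in their deviations at -0.21, -0.67, 0.44 and 0.35. Since CONTROL 1 and PNFLX 2 deviate and the source names number some arrays otherwise, whether the arrays were paired cannot be told from these values. Of the 7 genes, the authors' criteria were met by 2 with quantile normalization, 2 with equal medians, 1 with equal 75th percentiles (Acad9), and by 5 to 6 with 1 array left out. The share of all probes that met the criteria was not counted in these settings, so whether the drop is particular to these genes cannot be told. The cause was not tested. No gene changed sign in any setting run. Acad9 had a limma adjusted p under 0.05 without CONTROL 1 (0.0304), without CONTROL 1 and PNFLX 2 (0.0296) and with array weights (0.00162). In these fits 26, 40 and 150 of all probes passed, in the same order. The limma adjusted p of Acad9 was 0.144 with all arrays and 0.0627 to 0.585 in its other fits with a test. Acad9 was chosen on the same contrast, so nothing is read from these p-values. Cox6a2 and Cox4i2 fell below the filter on variance and had no value there.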
